A study of Mus musculus with 2 samples.

Results

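The promoters of 10 genes that act late in sperm formation were examined for H3K4me3, trimethylation of histone H3 at lysine 4, in mouse germ cells that have not yet entered meiosis. The genes were the sperm glycolysis genes Pgk2, Ldhc and Gapdhs, the testis-specific kinase genes Tssk1, Tssk2, Tssk3 and Tssk6, and the acrosome genes Acrv1, Spaca1 and Acr. They were set by name among 21887 annotated protein-coding genes, and the peaks described are those that overlap the gene body or the 5 kb on either side of it. All 10 are autosomal and all were found in the gene table. Their windows held 12 of the 135064 peaks of the deposited list, at 8 of the 10 genes.

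The cells were prospermatogonia, fetal male germ cells that later give rise to spermatogonia, sorted at E17.5 on an Oct-GFP reporter that both libraries share. The H3K4me3 library and a rabbit IgG library, 1 of each, came from 130000 freshly sorted cells by CUT&RUN, which sequences fragments cut from chromatin by an antibody-tethered nuclease. The sources used here do not give the strain, any further allele or the number of pooled embryos. No IgG values were analysed here. With no replicates there is no test between samples, and each value is given with an interval for counting error only.

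Sperm draw much of their energy for swimming from glycolysis in the tail, through enzymes that germ cells make from genes of their own in place of the widely expressed ones. The Tssk kinases phosphorylate sperm proteins during spermatid maturation, and the acrosome is the secretory vesicle over the sperm head that takes part in fertilisation. The genes of all 3 groups are best known for transcription from meiosis onwards, after the stage sampled here. H3K4me3 usually lies at promoters that are in use or held ready for use, above all those rich in CG dinucleotides.

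The sequences upstream of 6 of these genes show how widely their CG content ranged, and which of them carried a peak. Each line gives the 250 bases before an annotated start, read 5′ to 3′ on the gene's strand and credited to RefSeq (GRCm38.p6), with every CG dinucleotide in capitals. Pgk2, Ldhc and Spaca1 had a peak over the start, while Gapdhs, Tssk2 and Acrv1 had none within 1 kb of it.
Pgk2 (chr17:40208610-40208859, minus strand): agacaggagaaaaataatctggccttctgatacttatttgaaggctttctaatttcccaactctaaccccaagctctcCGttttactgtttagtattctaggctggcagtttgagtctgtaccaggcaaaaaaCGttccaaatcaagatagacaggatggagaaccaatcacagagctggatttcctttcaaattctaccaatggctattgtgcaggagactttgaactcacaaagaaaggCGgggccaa
Ldhc (chr7:46861013-46861262, plus strand): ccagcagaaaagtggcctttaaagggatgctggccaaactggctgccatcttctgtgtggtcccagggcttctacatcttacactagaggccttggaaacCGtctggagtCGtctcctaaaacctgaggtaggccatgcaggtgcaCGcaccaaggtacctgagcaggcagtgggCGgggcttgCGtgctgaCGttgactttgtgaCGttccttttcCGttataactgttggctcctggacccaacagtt
Spaca1 (chr4:34050068-34050317, minus strand): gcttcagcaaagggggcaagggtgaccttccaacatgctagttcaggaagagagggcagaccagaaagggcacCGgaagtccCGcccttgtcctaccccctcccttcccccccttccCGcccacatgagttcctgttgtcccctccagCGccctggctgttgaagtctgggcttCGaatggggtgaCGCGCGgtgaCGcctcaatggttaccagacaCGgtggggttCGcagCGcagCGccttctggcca
Gapdhs (chr7:30743682-30743931, minus strand): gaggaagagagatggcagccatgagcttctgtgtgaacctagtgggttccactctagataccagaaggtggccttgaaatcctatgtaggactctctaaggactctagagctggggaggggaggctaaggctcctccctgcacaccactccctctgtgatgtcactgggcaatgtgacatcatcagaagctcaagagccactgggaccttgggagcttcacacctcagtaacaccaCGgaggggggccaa
Tssk2 (chr16:17898387-17898636, plus strand): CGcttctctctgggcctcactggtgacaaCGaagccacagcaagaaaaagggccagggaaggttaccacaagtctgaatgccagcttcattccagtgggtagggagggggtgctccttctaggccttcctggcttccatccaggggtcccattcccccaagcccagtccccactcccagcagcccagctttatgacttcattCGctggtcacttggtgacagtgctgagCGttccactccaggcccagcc
Acrv1 (chr9:36692970-36693219, plus strand): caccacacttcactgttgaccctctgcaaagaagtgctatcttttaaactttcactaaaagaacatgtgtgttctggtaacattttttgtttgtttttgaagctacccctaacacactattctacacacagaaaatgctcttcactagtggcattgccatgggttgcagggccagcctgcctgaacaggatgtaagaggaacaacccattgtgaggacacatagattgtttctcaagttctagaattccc
These stretches held 3 CG in Pgk2, 8 in Ldhc and 13 in Spaca1, against 1 in Gapdhs, 4 in Tssk2 and 0 in Acrv1.

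H3K4me3 was found at the annotated start of 5 of the 9 genes whose start is listed: Pgk2, Ldhc, Tssk3, Tssk6 and Spaca1. The share among all protein-coding genes with a listed start was 73.3%. Gapdhs, Tssk1, Tssk2 and Acrv1 had no peak within 1 kb of a start. Acr has no listed start, and either of its ends was used in its place. With Acr counted in this way 6 of 10 genes were marked, against 73.6% of all protein-coding genes. In the wider window of gene body and 5 kb flanks the count was 8 of 10, against 88.3% of all protein-coding genes. Both shares were lower for short genes. Of the 5 members under 5 kb long 4 had a peak in that window, against 69.3% of all genes of that length, and 3 had one at the start, against 49.1%. Of the 5 longer members 4 had a peak in that window, against 94% of longer genes. At listed starts it was 2 of the 4 longer members, against 80.6%. These shares describe 1 library and were not tested.

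Peaks that also lie within 1 kb of an end of another protein-coding gene numbered 6 of the 12. They were the peaks at Gapdhs, Tssk1, Tssk3 and Tssk6. Without them 4 of 10 genes kept a peak in the body or flanks, namely Pgk2, Ldhc, Spaca1 and Acr, against 79.2% of all protein-coding genes under the same rule. At listed starts 3 of 9 remained, Pgk2, Ldhc and Spaca1, against 59.9%.

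**Figure D1:**
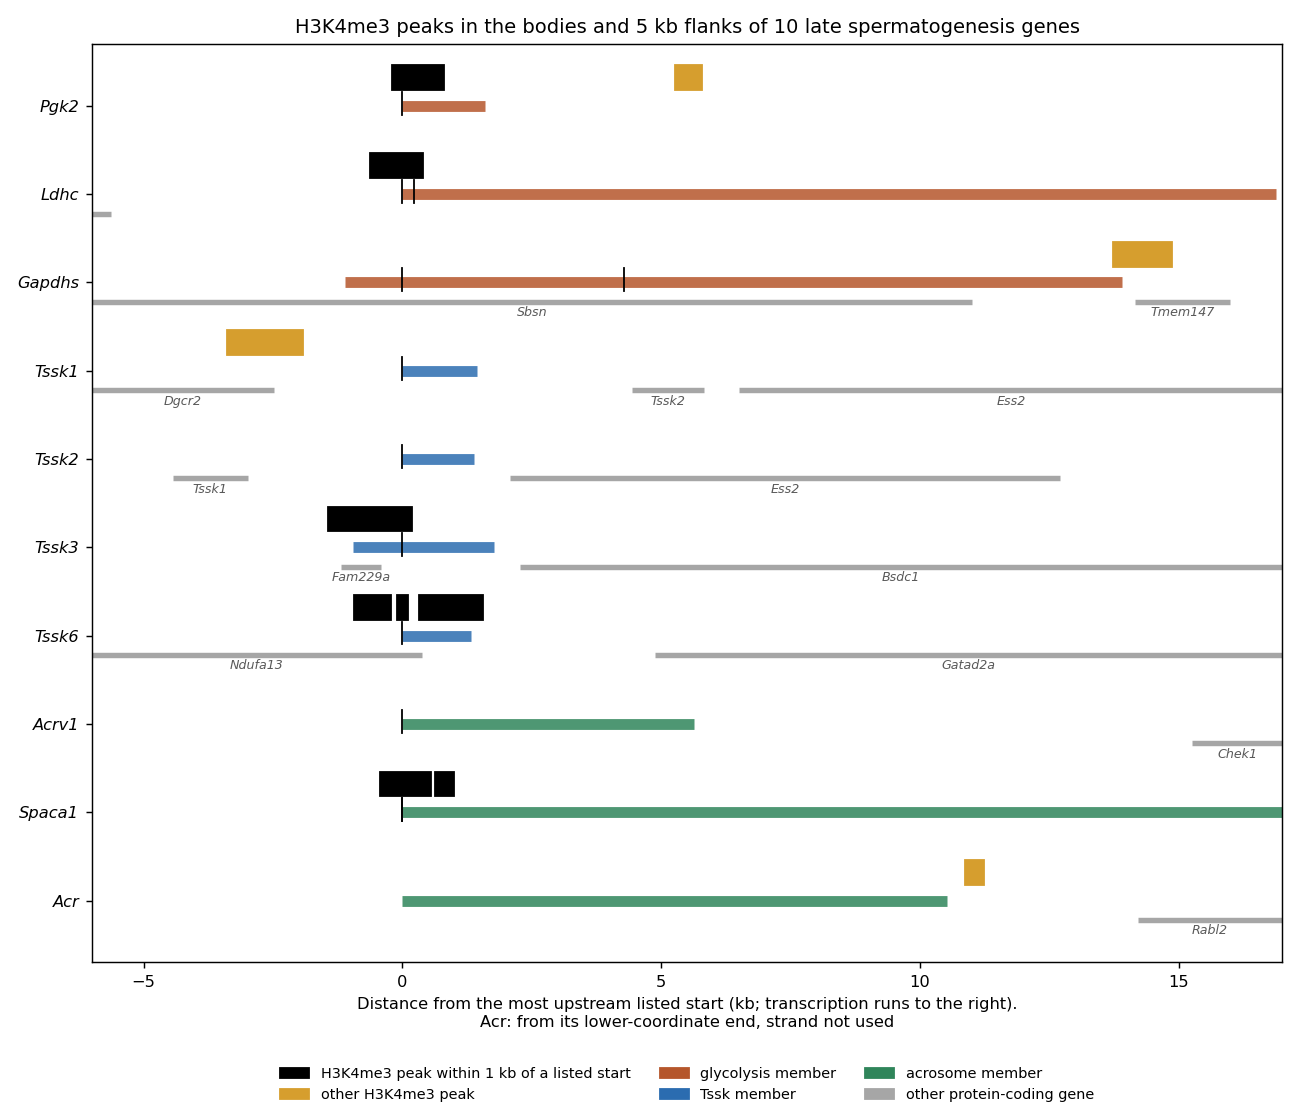
H3K4me3 peaks in the gene body and 5 kb flanks of the 10 genes, as blocks above each gene, by distance in kb from the most upstream listed start (Acr: from its lower-coordinate end). Pgk2, Ldhc, Tssk3, Tssk6 and Spaca1 have a peak within 1 kb of a listed start (black). The further Pgk2 peak and the peaks of Gapdhs, Tssk1 and Acr lie elsewhere (yellow), and Tssk2 and Acrv1 have none. Bars are cut off at the edges of the axis.

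Among the glycolysis genes, Pgk2 and Ldhc carried the mark at their starts and Gapdhs did not. Pgk2, the germ cell phosphoglycerate kinase and an intronless copy of the X-linked Pgk1, had a peak of 1011 bp from 40207802 to 40208812 on chromosome 17 (mm10). Its summit lay 93 bp upstream of the start and held 36 fragments (exact 95% Poisson interval 25.2 to 49.8) over a local background of 4.12 fragments. This is a fold enrichment of 7.22 (5.12 to 9.92), where the fold is the authors' value for the peak over its local background. The peak covered 808 bp of the 1592 bp gene. It was wider than 79.9% of all peaks in the list and had more fragments than 69.7%. Among the 11958 peaks of highest fold at marked starts of protein-coding genes, its fold exceeded 73.2% and its pileup 21.6%. A further Pgk2 peak, of 515 bp with 23 fragments (14.6 to 34.5), lay 3675 bp beyond the 3′ end of the gene. No other annotated gene lay within 12 kb of Pgk2 in the gene table.

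Ldhc encodes the lactate dehydrogenase subunit of male germ cells and sperm. Its peak, from 46860642 to 46861660 on chromosome 7, was 1019 bp wide with a summit 383 bp upstream of the start. The summit held 31 fragments (21.1 to 44.0) over a background of 2.80, a fold of 8.43 (5.81 to 11.9). That fold exceeded 90% of those of the 11958 peaks that have the highest fold at a marked start of a protein-coding gene, while its pileup exceeded 10.6% of theirs. The high fold thus stood beside a low local background rather than a large number of fragments. The same peak held the start of Gm39011, a long noncoding RNA gene on the opposite strand that begins 19 bp from Ldhc.

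Gapdhs encodes the glyceraldehyde-3-phosphate dehydrogenase of the sperm tail. Its window held a peak of 1137 bp from 30728809 to 30729945 on chromosome 7, with 41 fragments (29.4 to 55.6) and a fold of 7.28 (5.27 to 9.81). This peak overlapped the last 167 bp of Gapdhs and contained the start of Tmem147, which encodes a transmembrane protein and begins 245 bp beyond the end of Gapdhs. The listed starts of Gapdhs lay 9462 and 13736 bp from it, and no peak was closer.

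The widely expressed counterparts were all marked at a start. Pgk1 and Gapdh each had 2 peaks there, and Ldha and Ldhb 1 each. The values given are those of the peak of highest fold. Pgk2 had 36 fragments over 1011 bp, against 25 (16.2 to 36.9) over 941 bp at Pgk1, and their intervals overlapped. Ldhc had 31 fragments over 1019 bp, against 42 (30.3 to 56.8) over 2390 bp at Ldha and 55 (41.4 to 71.6) over 1545 bp at Ldhb. The interval of Ldhc overlapped those of both. Gapdhs had no peak at a start, and Gapdh, its counterpart, had a peak of 1579 bp with 48 fragments (35.4 to 63.6). Pgk1 is X-linked and the germ cell genes are autosomal, so copy number differs between them in male cells, and its part in the pileups was not tested.

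Among the kinase genes, Tssk3 and Tssk6 were marked at their starts and Tssk1 and Tssk2 were not. Every peak in the windows of these 4 genes also lay within 1 kb of an end of another protein-coding gene. Tssk3 had the widest of the 12 peaks, 1639 bp from 129490578 to 129492216 on chromosome 4. Its summit held 35 fragments (24.4 to 48.7), a fold of 5.13 (3.62 to 7.08), and lay 637 bp upstream of the listed Tssk3 start. The annotated extent of Tssk3 runs beyond that start and overlaps Fam229a. Of the peak, 1153 bp, summit included, lay inside Tssk3. The start of Fam229a, on the opposite strand and 420 bp from that of Tssk3, was inside the same peak. The summit also lay inside Fam229a, and was nearer to the start of Fam229a than to that of Tssk3.

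Tssk6 encodes a kinase needed in mouse spermatids for the compaction of sperm chromatin. It had 3 peaks, the most of any of the 10 genes, on chromosome 8 between 69901248 and 69903740. The peak over the start was narrow, at 209 bp, with 23 fragments (14.6 to 34.5) and a fold of 2.80 (1.82 to 4.14), the lowest fold of the 12. Upstream of it lay a peak of 711 bp with 35 fragments (24.4 to 48.7) and a fold of 4.20 (2.96 to 5.80). Downstream of the start lay a peak of 1232 bp, 1010 bp of it inside the gene and the rest beyond its 3′ end, with 45 fragments (32.8 to 60.2), the highest pileup of the 12, and a fold of 5.31 (3.90 to 7.07). Local backgrounds were also the highest of the set, from 7.57 to 7.66 fragments. The listed start of Ndufa13, a gene for a subunit of mitochondrial complex I on the opposite strand, lay 164 bp from that of Tssk6. It fell in the gap between the first peak and the peak over the Tssk6 start. The annotated extent of Ndufa13 runs beyond its listed start to 69902558. It thus overlaps Tssk6 and ends inside the downstream peak.

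Tssk1 and Tssk2 are neighbouring kinase genes on chromosome 16, each in the same direction. The peak in the window of Tssk1 was 1469 bp wide, from 17890814 to 17892282, with 41 fragments (29.4 to 55.6) and a fold of 7.03 (5.09 to 9.47). It contained the start of Dgcr2, on the opposite strand, and ended 1921 bp short of Tssk1. The same peak was the nearest to Tssk2, at 6355 bp from its start and so outside the 5 kb flank. The Pgk2 peak 3675 bp beyond the gene was the farthest inside that limit.

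Among the acrosome genes, Spaca1 was marked at its start, Acr only beyond an end, and Acrv1 not at all. Spaca1 encodes an acrosomal membrane protein that mouse spermatids need for the shape of the acrosome. Its main peak ran from 34049510 to 34050504 on chromosome 4 over 995 bp. The summit lay 184 bp downstream of the nearer of 2 listed starts, which are 2 bp apart, and held 43 fragments (31.1 to 57.9) over a background of 4.01. The fold of 8.78 (6.41 to 11.8) was the highest of the 12 peaks and exceeded 92.6% of those at marked starts, with a pileup above 54.1% of them. A smaller peak of 359 bp with 19 fragments (11.4 to 29.7) lay next to it inside the gene. No other annotated gene lay within 12 kb of Spaca1.

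Acr encodes acrosin, the serine protease of the acrosome. A peak of 373 bp lay from 89579198 to 89579570 on chromosome 15, which is 345 bp beyond the higher-coordinate end of the gene. It held 19 fragments (11.4 to 29.7) over a background of 2.11, the lowest value in the list, and had a fold of 6.42 (4.0 to 9.85). No peak lay within 8947 bp of the other end. The peak and the smaller Spaca1 peak had the fewest fragments of the 12.

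Acrv1 encodes the acrosomal protein SP-10. The peak nearest to its start, on chromosome 9, was 11979 bp away, with 29 fragments and a fold of 9.34. The start of a long noncoding RNA gene on the opposite strand, 1700027I24Rik, lay 31 bp from that of Acrv1, and neither start had a peak. The lowest summit pileup in the whole list was 9 fragments, so fewer fragments than that over the starts of Acrv1, Gapdhs, Tssk1 or Tssk2 would not be seen in a list of peaks, and more are needed where the local background is higher. An absent peak is therefore not a measured absence of the mark.

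**Figure D2:**
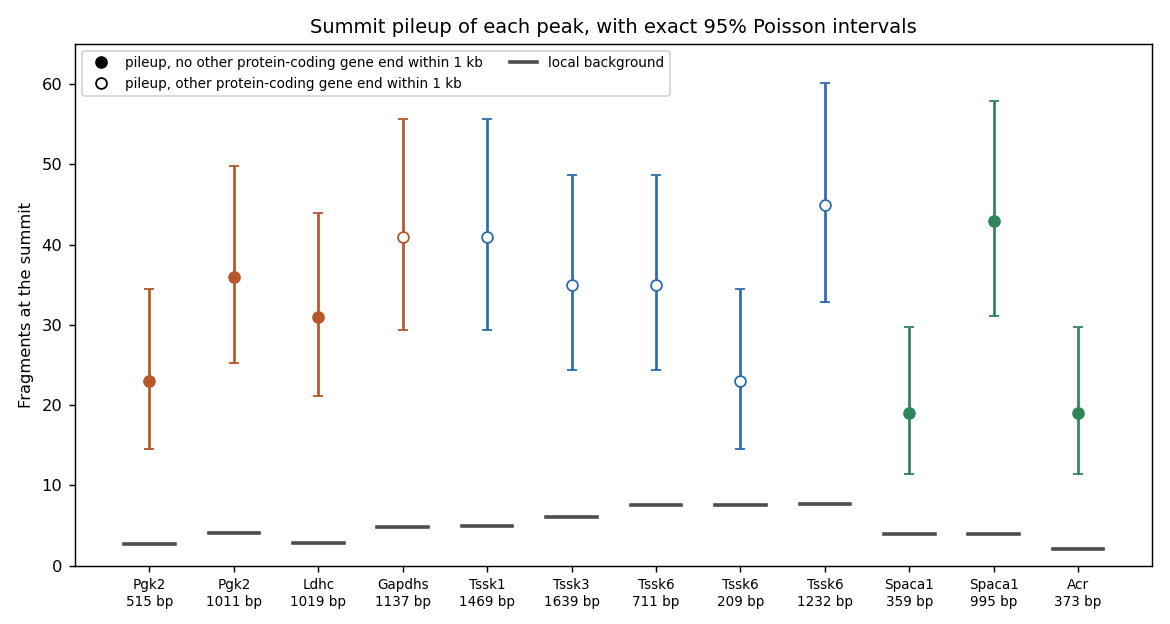
Fragments at the summit of each of the 12 peaks, with exact 95% Poisson intervals, and the local background of each peak as a horizontal bar. Open circles mark the 6 peaks with an end of another protein-coding gene within 1 kb. Pileups ran from 19 at Acr and Spaca1 to 45 at Tssk6, and most intervals overlap.

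The 12 peaks had a median width of 1003 bp, a median pileup of 35 fragments and a median fold of 6.44. The peaks of highest fold at marked starts of protein-coding genes had medians of 1142 bp, 42 fragments and 6.17, and all peaks of the list had 572 bp, 27 fragments and 6.0. At the start, Pgk2, Ldhc and the main Spaca1 peak were close in width, from 995 to 1019 bp. The Pgk2 peak was wider than 40.0% of the peaks at marked starts, the Ldhc peak than 40.7% and the Spaca1 peak than 39.1%. The Tssk3 peak was wider than 83.8% of them and its fold was above 25.4%.

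By their listed starts, several of these genes begin back to back with another gene. Starts on the opposite strand lay within 1 kb upstream of Ldhc, Tssk3, Tssk6 and Acrv1, a grouping chosen after the peaks were seen. That is 4 of the 9 members with a listed start, beside 2298 of 17492 protein-coding genes. Of these 4 genes 3 had a peak at the start, against 96.6% of all protein-coding genes arranged in this way. Of the other 5 genes with a listed start 2 had a peak, Pgk2 and Spaca1, against 69.7% of all genes without such a partner. At Ldhc, Tssk3 and Tssk6 the deposited peaks do not tell which of the paired starts the fragments belong to.

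CG dinucleotides were counted in the promoter, taken as 250 bases before to 50 bases after a start, and set beside the peaks with no test. The 9 genes with an entry had 12 promoters. The promoters of Spaca1, with 16 CG each, Tssk6 with 14, Tssk3 with 10 and the upstream start of Ldhc with 9 all had a peak within 1 kb. Acrv1 with 1 CG, Tssk1 with 2, Tssk2 with 6 and both Gapdhs starts, with 4 at the upstream and 1 at the downstream one, had none. Marked and unmarked promoters overlapped in this count, because Pgk2 had a peak with 4 CG and the downstream start of Ldhc, which lies within the same peak as the upstream one, had 3. The median of all 21263 protein-coding promoters was 13 CG.

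The ratio of observed to expected CG places these promoters among all others. Acrv1, Tssk1 and both Gapdhs starts, all without a peak, had a ratio under 0.2, as had the downstream start of Ldhc, in a class where 19.7% of all promoters had a peak within 1 kb. Pgk2 at 0.291 and Tssk3 at 0.380, both marked, and Tssk2 at 0.228, unmarked, lay in the class from 0.2 to 0.4, where the share of all promoters was 49%. Ldhc at 0.424, Tssk6 at 0.515 and Spaca1 at 0.539, all marked, lay in the class from 0.4 to 0.6, where it was 89%. No promoter of the 9 genes reached the higher classes, where 98.5% and 99.3% of promoters had a peak. The promoters of the 9 genes thus lay in the 3 classes of lowest ratio, although by count Spaca1 and Tssk6 were above the median of 13 CG. What sets the mark at these promoters was not tested.

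**Figure D3:**
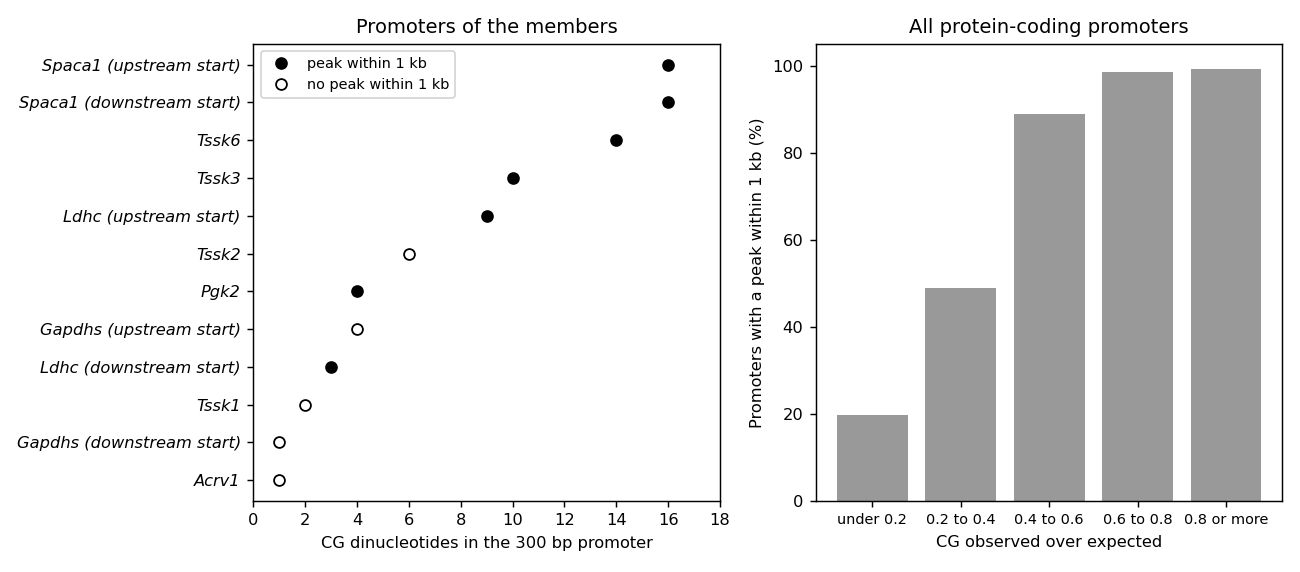
Left, number of CG dinucleotides in each 300 bp promoter of the 9 genes with an entry; filled circles have an H3K4me3 peak within 1 kb of that start. Right, share of all protein-coding promoters with a peak within 1 kb, by ratio of observed to expected CG. The marked promoters of Spaca1, Tssk6, Tssk3 and the upstream Ldhc start lie at 9 CG or more, while Pgk2 is marked at 4 and Tssk2 is unmarked at 6.

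Short motifs were read on both strands of the same 300 bp. GGGCGG, the GC box, was present at Ldhc, Tssk6 and Spaca1, against 46.2% of all promoters. TCCCGC, an E2F-type motif, was present at Spaca1 alone, against 25.8%. TATAAA (12.6% of all promoters), TGACGTCA, the full cAMP response element (2.23%), and CACGTG, an E-box (7.84%), were found at none of the 9 genes. A match describes the letters only, and no binding was measured.

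Other genes of the same processes were read in the same way, from lists drawn up with earlier results of these data known. Genes of sperm energy supply other than the 3 above had a peak at the start, or at either end where no start is listed, in 8 of 9 cases, against 73.6% of all protein-coding genes. Gk2, a testis glycerol kinase, led with a fold of 7.86 and 47 fragments (34.5 to 62.5), followed by Cyct, the testis cytochrome c, at 7.47 with 48 (35.4 to 63.6). The median pileup of the peak of highest fold was 35.5 fragments over the 6 marked members, against 47.5 over the marked genes of this list. All 16 genes of the glycolysis list of other tissues had a peak, with a median of 44 fragments and 1481 bp. Aldoc (7.55) and Pfkm (7.47), which encode an aldolase and the muscle phosphofructokinase, led in fold. Peaks within 1 kb of an end of another protein-coding gene were kept in all related lists. The Aldoc peak was among these.

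Other Tssk genes and their partners were marked in 3 of 5 cases and other acrosome genes in 16 of 25, or 64%, against 73.6% of all protein-coding genes. Spag16, an axoneme protein gene, led at 6.59 and Odf2, an outer dense fibre gene, followed at 5.46, and Tssk4 and Tssk5, named after their values were seen, had no peak at a start or end. Among the acrosome genes Prss21, a testis serine protease gene, led at 9.32 with 50 fragments (37.1 to 65.9), and Pick1, which serves vesicle traffic to the acrosome, had 8.77. Prss37, Spaca4 and Spaca7, the last named after its values were seen, had no peak in the gene body or flanks, as Acrv1 and Tssk2 had none. The other 22 of 25 acrosome genes (88%) did have 1 there, as did 88.3% of all protein-coding genes. With counts this small the lists were not set against each other by a test.

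**Figure D4:**
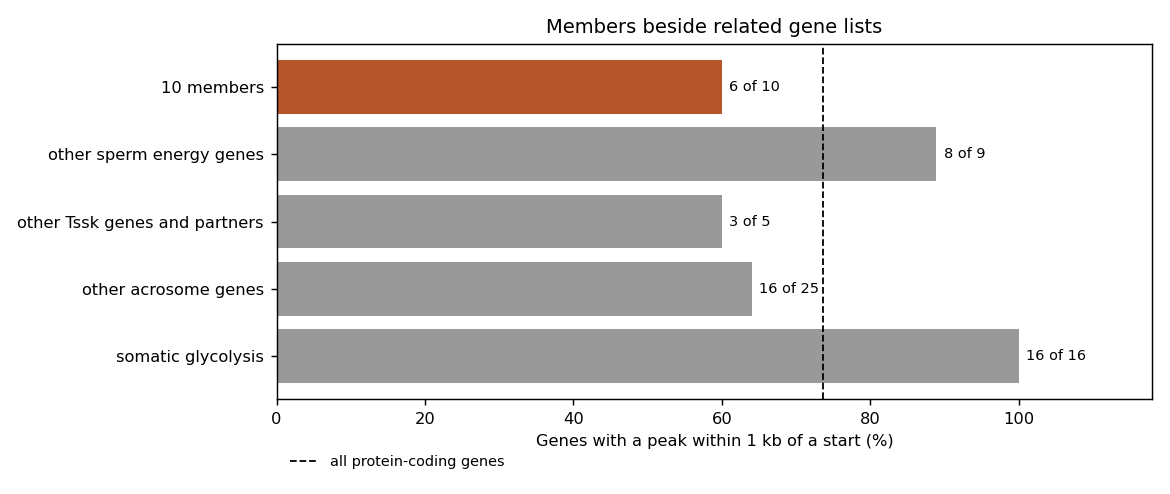
Percent of genes with an H3K4me3 peak within 1 kb of a start, or of either end where no start is listed, for the 10 members and 4 related lists, with the count beside each bar. The dashed line is the 73.6% of all protein-coding genes. The members stand at 6 of 10, below the 16 of 16 of the glycolysis genes of other tissues.

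Markers of the sorted cells and of other fetal testis cells were read by the same rule. Fetal male germ cell markers had a peak in 7 of 9 cases, Sertoli markers in 5 of 6, endothelial and blood markers in 3 of 6 and Leydig markers in 2 of 6, beside the 73.6% of all protein-coding genes. In that order, the median folds over the marked genes were 7.21, 3.33, 8.63 and 8.62. The median pileups were 34, 44, 39 and 46 fragments, so the Sertoli markers were lowest in fold but not in fragments. Of the Sertoli markers 1 of 6 has a listed start, and the others were read at either end. Of the germ cell markers, Ddx4, Dazl, Mael, Dnd1, Tex101, Piwil4 and Dnmt3l had a peak, and Nanos2 and Nanos3 had none at a start but 4 and 1 in the gene body or flanks. The germ cell and Sertoli shares, 77.8% and 83.3%, lay near that of all genes. H3K4me3 at a promoter is no measure of transcription, and any share of other cells in the sorted sample was not tested.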

How the data were processed

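H3K4me3 was profiled by CUT&RUN in 1 library of sorted prospermatogonia, and 1 IgG library was made alongside, of which nothing was analysed here. The submitters' processing notes name MACS2 (2.1.0), Bowtie2 (2.5.0), deepTools (3.5.1), bedtools (2.27.1), SAMtools (1.16.1) and Trim Galore, and the builds mm10 and sacCer3. What each tool did, its settings and the total number of fragments are not stated there. The authors deposited a peak list with a fold enrichment (a ratio) at each summit. The deposited list also gives −log10 p, −log10 q and a score for each peak. These belong to single peaks and only describe or filter them within the list.

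Summit pileup and local background of each peak were worked out from its fold and its −log10 p. The fold was read as (pileup + 1) / (background + 1), and the p as an upper Poisson tail. This gave values for 135053 of 135064 peaks within 0.0001. The background is read as that of the surroundings of a peak, and no subtraction of IgG is assumed. Exact Poisson intervals (95%) cover counting error only, and fragments carry no molecular identifiers here.

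Gene extents, starts and strands came from RefSeq tables of GRCm38.p6, the build of mm10. A start was listed for 17492 of 21887 protein-coding genes and for 9 of the 10 members. For the others either end within 1 kb was used. Promoter windows held 300 bp. The genes, lists and rules were chosen with earlier results of these data known. Named genes were all members, protein-coding genes with an end within 1 kb of a member peak, the widely expressed counterparts, and from each related list the 2 of highest fold at the start and up to 2 without a peak. The germ cell markers were named in full, after their values were seen. Flanks, windows, overlaps and stricter peaks were varied. On simulated data, the pileup was recovered for 2000 of 2000 summits, all 200 planted genes were called and 0 of 200 emptied genes. The simulated summits were made with the same formulas, and the planted peaks were laid over listed starts. The outcome therefore checks the code alone, and cannot show that the pileups or calls of the real peaks are right. Software was scipy 1.17.1, pandas 2.3.3, numpy 2.4.6 and matplotlib 3.10.9 under Python 3.11.15.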

Additional observations from a re-analysis of the deposited data

How the results depend on the processing

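No paired analysis was possible because there is 1 H3K4me3 library and no replicate to pair or leave out. Without peaks within 1 kb of an end of another protein-coding gene, the members with a peak in the body or flanks numbered 4 (beside 79.2% of all protein-coding genes), against 8 (beside 88.3%), and the peaks 6, against 12. Under the other 8 alternatives the members with such a peak numbered 6 to 9, with 6 for the gene body alone (beside 81.9% of all protein-coding genes) and 9 with flanks of 10 kb (beside 92.2%), and the peaks 8 to 17. Members with a peak at the start numbered 4 to 7 over 9 alternatives, against 6 (beside 73.6%). With a fold of at least 5 they were 6 (beside 56.7% of all protein-coding genes), and without peaks near other genes 4 (beside 60.6%). The range of 4 to 7 includes 5 of 9 where only genes with a listed start were used, an alternative chosen after seeing the data. The count of 7 came from a window of 2.5 kb and from the use of either annotated end. No share of all genes was worked out under those rules, so 73.6% is not a like measure for it. Where summits needed 20 or more fragments Acr, at 19, was lost, which left 5 members with a peak at the start (beside 71.8%). Over 6 alternatives the median fold was 6.27 to 7.03, the median width 755 to 1019 bp and the median pileup 27 to 36 fragments. Without replicates, and with the depth of the library unknown, starts without a peak cannot be told from starts with too few fragments to be called.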
